A study of Mus musculus with 15 samples.

Results

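Protein 4.1, the tropomodulins and their partners hold actin filaments and spectrin to the inner face of the cell membrane. The group of genes described here has 10 members: Epb41, Epb41l1, Epb41l2 and Epb41l3 (the protein 4.1 family), Tmod1, Tmod2 and Tmod3 (tropomodulins), Mpp1, Dmtn and Stom. Members were chosen by name, as the probe sets whose platform symbol or older synonym is one of these genes, with the highest-mean probe set for each gene. Of the 10, 9 had a probe set among the 19938 genes with a single symbol. Epb41, the red cell form of protein 4.1, was listed under neither its present nor its older name and was not analysed here. All 9 passed the filter on low values and were tested among 10109 genes.

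Choroid plexus, the tissue that secretes cerebrospinal fluid, was taken from C57BL/6J mice labelled male, at an age of 3 weeks. The design states that this age precedes hydrocephalus, and the comparisons ask which expression differences are already present then. The groups were 5 Add1 null (knockout) mice, with 0 wild-type alleles, 5 Add1 heterozygotes, with 1, and 5 wild-type mice, with 2. Each mouse gave 1 single-colour Affymetrix array. The labels do not state which part of Add1 was removed. Levels are log2 values, so a difference of 1 is a 2-fold change. The number of arrays limits the precision, and a level says nothing about which cells carry the RNA, since fewer cells of a type and less RNA per cell cannot be told apart in bulk tissue.

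In red cells, short actin filaments form the nodes of a spectrin mesh. Adducin, the product of Add1 and its relatives, caps the fast-growing filament ends and recruits spectrin, while tropomodulin caps the slow-growing ends. Protein 4.1 strengthens the bond between spectrin and actin and, with the p55 protein made from Mpp1, ties the node to glycophorin C. Dematin, made from Dmtn, bundles actin, and stomatin, made from Stom, is a membrane protein that binds channels and the glucose transporter encoded by Slc2a1. Outside red cells the relatives have other sites: Epb41l1 and Tmod2 are best known from neurons, Epb41l3 from neurons and myelinating cells, and Epb41l2 and Tmod3 from many tissues.

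Promoter sequence is shown for Mpp1, Epb41l2 and Tmod2, because these 3 had the smallest p-values of the group in the comparisons below. The sequences are from RefSeq (build GRCm38.p6), run 5′ to 3′ on the gene's strand and cover 250 bases before to 50 bases after a listed start. Promoters were listed for 8 of the 10 genes, in 15 entries; the others are Tmod3 and Dmtn. Mpp1 lies on the minus strand at chrX:75130967-75131266, Epb41l2 on the plus strand at chr10:25408118-25408417 and Tmod2 on the minus strand at chr9:75611276-75611575. The Tmod2 window is the upstream one of the 2 starts listed. Capitals mark a GATA motif (AGATAA or TGATAA), a GC box (GGGCGG) or a CCAAT box, each searched on both strands.
Mpp1: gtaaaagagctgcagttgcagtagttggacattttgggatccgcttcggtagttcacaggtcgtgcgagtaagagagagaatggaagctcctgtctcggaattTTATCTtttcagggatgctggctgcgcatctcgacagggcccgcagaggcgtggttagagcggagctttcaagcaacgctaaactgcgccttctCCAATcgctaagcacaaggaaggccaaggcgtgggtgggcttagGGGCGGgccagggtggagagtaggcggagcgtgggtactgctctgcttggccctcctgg
Epb41l2: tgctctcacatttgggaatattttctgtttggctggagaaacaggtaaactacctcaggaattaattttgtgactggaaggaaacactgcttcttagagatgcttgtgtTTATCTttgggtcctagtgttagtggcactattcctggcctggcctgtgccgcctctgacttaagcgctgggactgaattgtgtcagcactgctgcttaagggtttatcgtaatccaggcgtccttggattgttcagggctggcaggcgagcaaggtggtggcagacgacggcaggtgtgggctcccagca
Tmod2: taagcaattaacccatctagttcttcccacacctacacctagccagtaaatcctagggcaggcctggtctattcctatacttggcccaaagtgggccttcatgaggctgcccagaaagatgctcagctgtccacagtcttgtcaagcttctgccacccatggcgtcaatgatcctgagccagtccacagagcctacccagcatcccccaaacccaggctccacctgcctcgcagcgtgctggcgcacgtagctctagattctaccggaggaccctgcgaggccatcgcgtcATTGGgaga

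The Mpp1 window held 1 copy of each of the 3 motifs, the Epb41l2 window 1 GATA motif and the Tmod2 window 1 CCAAT box. Over the group, 3 of 15 windows held a GATA motif, 8 a GC box and 7 a CCAAT box. Among all 32851 windows of 300 bases the shares were 18.6%, 35.7% and 37.4%. A GC box can share bases with a CCAAT box read on the other strand, as it does in the Stom window, and a match of letters does not show that a factor binds.

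Before the results, 3 arrays need a description. The level of Xist, the RNA of the inactive X, was 9.09 for null array 1 and 9.69 for null array 5, against 3.11 to 3.88 in the other 13 arrays, and the Y-linked Uty read 3.78 to 3.84 in these 2 arrays against 7.53 to 7.95 in the rest. Both arrays therefore go against their label of male, which bears on Mpp1, an X-linked gene. Heterozygous array 1 carried neural RNA: the summed signal of 10 measured neuron markers was 10.11 there on the log2 scale and 8.28 to 9.25 elsewhere. The tissue label fitted its markers, with all 9 measured markers of choroid plexus epithelium above the filter, among them Kl (10.96 to 11.21) and Folr1 (11.21 to 11.49). Between null and wild type, limma called 1 of these 9 higher and 2 lower, and 7.72% of all tested genes. Aqp1 read 10.92 to 11.08 in null and 10.62 to 10.70 in wild-type mice. Kcne2 read 9.81 to 10.09 and 10.13 to 10.25, and Kcnj13 12.24 to 12.45 and 12.46 to 12.72, in the same order. Add1 itself read 7.66, 7.74, 7.76, 7.46 and 7.41 in null mice, 7.68, 7.68, 7.74, 7.92 and 7.79 in heterozygotes and 7.96, 8.04, 7.78, 7.81 and 8.0 in wild-type mice. All null arrays lay below all wild-type arrays (log2 difference -0.31, limma adjusted p = 0.0241). The Add1 call held in 20 of 28 alternative fits and was lost without null array 4 (-0.28, adjusted p = 0.0512), without wild-type array 1 (-0.30, adjusted p = 0.0636) or 2 (-0.28, adjusted p = 0.0681) and without the 2 arrays with Xist signal (-0.26, adjusted p = 0.10). Add1 averaged 7.61 ± 0.161 in null, 7.76 ± 0.0996 in heterozygous and 7.92 ± 0.116 in wild-type mice (SD, n = 5 each). A probe set outside a deletion can keep its signal, so this step does not measure the loss of the protein.

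Mpp1 was the member that changed between null and wild-type mice. It encodes p55, a membrane-associated guanylate kinase that binds protein 4.1 and glycophorin C in red cells. The 5 null arrays read 7.09, 7.46, 7.21, 7.29 and 7.46, the 5 heterozygous arrays 7.43, 7.37, 7.67, 7.45 and 7.46, and the 5 wild-type arrays 7.66, 7.71, 7.73, 7.46 and 7.53. The null arrays lay below all but 1 of the wild-type arrays, and the genotypes met at 7.46, the value of null arrays 2 and 5 and of wild-type array 4. The mean was 7.30 ± 0.161 in null and 7.62 ± 0.118 in wild-type mice (SD, n = 5 each). Mpp1 fell to 80.3% of the wild-type signal in null mice (log2 difference -0.32, 95% interval -0.49 to -0.15, limma adjusted p = 0.0257). The exact two-sided permutation test gave p = 0.0238.

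This was 1 call among the 9 tested members, while limma called 7.72% of all tested genes in the same comparison. The share of members called is therefore near that of genes at large. None of the 9 had null and wild-type arrays that did not overlap, against 5.95% of all tested genes. Of the 9, 5 differed upward and 4 downward, with a median difference of 0.04 beside 0.01 over all tested genes.

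**Figure D1:**
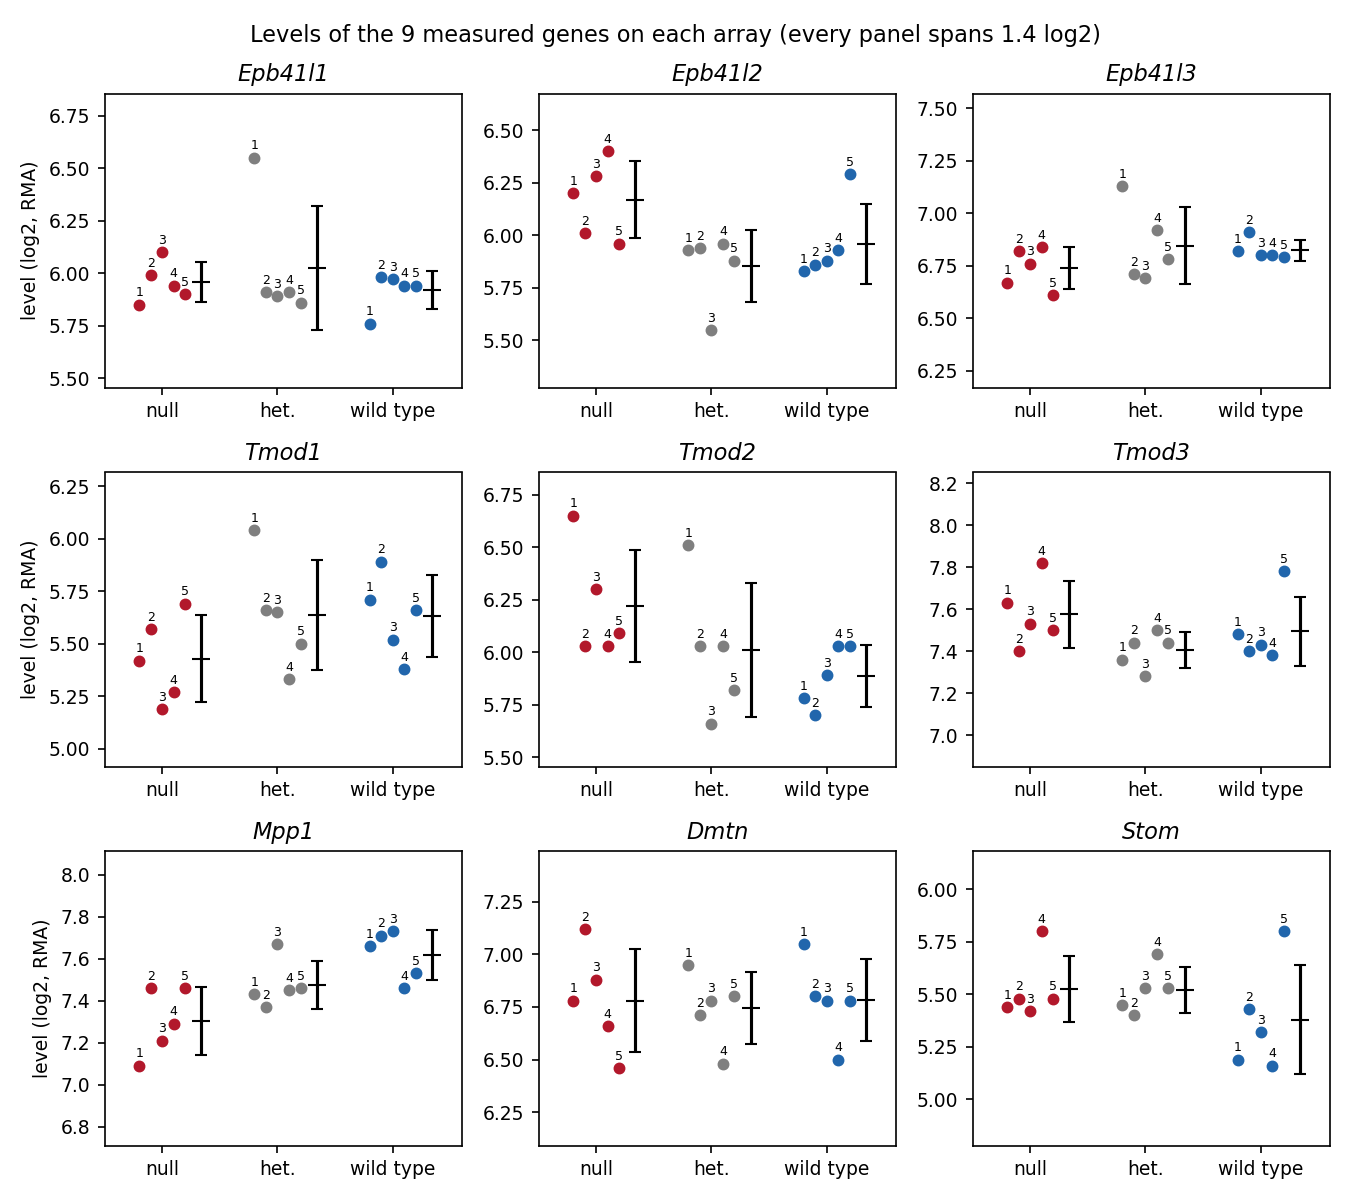
Level of each of the 9 measured genes on every array (log2, RMA), with null, heterozygous and wild-type arrays from left to right in each panel; digits are replicate numbers, and the bar beside each group is its mean ± SD (n = 5). Mpp1 averages 7.30 in null and 7.62 in wild-type mice, and heterozygous array 1 stands above its group for Epb41l1 at 6.55.

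The Mpp1 difference kept its direction in every fit that was run, but its call depended on single arrays. Without null array 1 it was -0.26 (adjusted p = 0.0752) and without null array 3 it was -0.29 (adjusted p = 0.0694). Without wild-type array 1, 2 or 3 it was -0.31, -0.29 and -0.29 (adjusted p = 0.0662, 0.0681 and 0.0700). The 2 arrays with Xist signal are the lowest and 1 of the 2 highest null values of Mpp1. Without both, the difference was -0.30 (adjusted p = 0.0621).

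**Figure D2:**
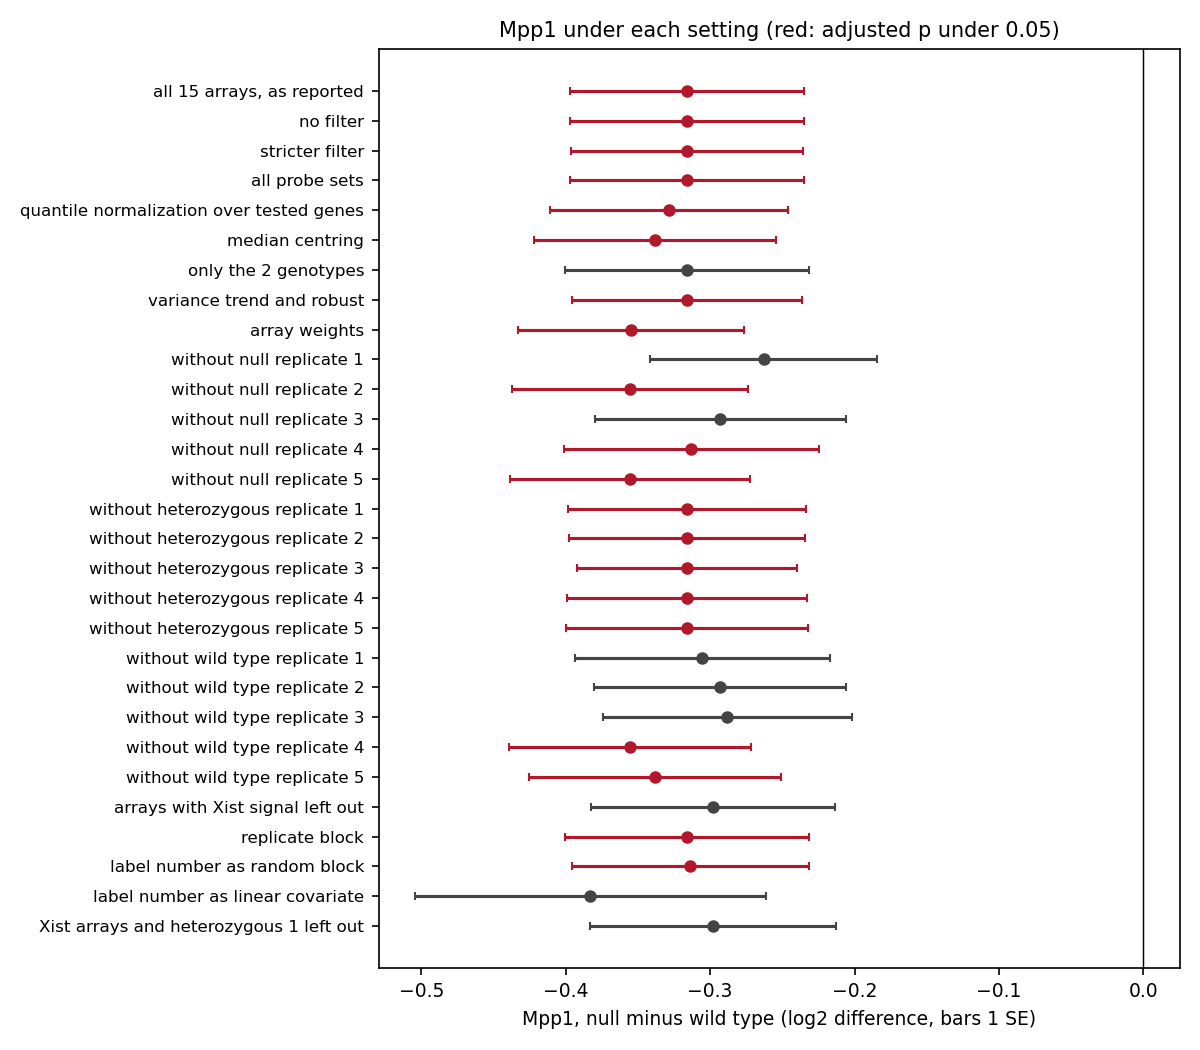
Null minus wild-type difference of Mpp1 (log2, horizontal axis) under each way of fitting the data, with bars of 1 SE; red points have an adjusted p under 0.05. All points lie between -0.38 and -0.26, and the call holds in the fit of all 15 arrays and in 19 of the 28 alternative fits.

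Heterozygous mice lay between the other genotypes for Mpp1, at 7.48 ± 0.114 (SD, n = 5). Their difference from wild type was -0.14 (95% interval -0.31 to 0.03, adjusted p = 0.994), and null mice differed from heterozygotes by -0.17 (95% interval -0.34 to -0.004, adjusted p = 0.185). Neither step passed on its own. The slope over the number of wild-type Add1 alleles was 0.16 per allele (SE 0.0397, adjusted p = 0.0290), where 5.61% of all tested genes passed. The slope lost its call without null array 1 (0.13, adjusted p = 0.0852) or 3 (0.15, adjusted p = 0.0860) and without wild-type array 1 (0.15, adjusted p = 0.0656), 2 (0.15, adjusted p = 0.0653) or 3 (0.15, adjusted p = 0.0693). Without the 2 arrays with Xist signal it was 0.15 (adjusted p = 0.0805), and in all it passed in 16 of 27 alternative fits. Add1 had a slope of the same size, 0.16 per allele (SE 0.0387, adjusted p = 0.0276). No other member passed on the slope.

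The genes whose level over the 15 arrays was most like that of Mpp1 were Cse1l, a nuclear export factor (Pearson r = 0.913), Decr1, a mitochondrial enzyme of fatty acid breakdown (r = 0.893), and Hdhd2 (r = 0.892). Within genotypes these values were 0.855, 0.768 and 0.844, and without null array 1 and wild-type array 3, which lay farthest from the median of Mpp1, they were 0.881, 0.818 and 0.800. They are the highest of the named genes among 10108 candidates, so no p is given. Gene models without an approved name were skipped.

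Among the protein 4.1 relatives Epb41l2, also called protein 4.1G, had the widest separation between null and heterozygous mice. The null arrays read 6.20, 6.01, 6.28, 6.40 and 5.96, the heterozygous arrays 5.93, 5.94, 5.55, 5.96 and 5.88, and the wild-type arrays 5.83, 5.86, 5.88, 5.93 and 6.29. The null arrays were above the heterozygous ones apart from a tie at 5.96, whereas wild-type array 5 stood inside the null range. The mean was 6.17 ± 0.184 in null, 5.85 ± 0.171 in heterozygous and 5.96 ± 0.189 in wild-type mice (SD, n = 5 each). Null differed from heterozygous by 0.32 (95% interval 0.10 to 0.54), with a limma adjusted p of 0.0648 and an exact permutation p of 0.0159. This did not pass, in a comparison in which limma called 7.82% of all tested genes and 0 of the 9 members; 2 of the 9, Epb41l2 and Mpp1, had an unadjusted p under 0.05, as did 25.8% of all tested genes.

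The difference of Epb41l2 passed the threshold when null array 2 was left out (0.36, adjusted p = 0.0322). The same held when null array 5 was left out (0.37, adjusted p = 0.0435) and when wild-type array 5 was (0.32, with an adjusted p of 0.0435 too). With array weights it was 0.39 (adjusted p = 0.0246). Over the fits that left out 1 array it ranged from 0.24 to 0.37. Null against wild type gave 0.21 (95% interval -0.01 to 0.43, adjusted p = 0.224).

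Epb41l1, protein 4.1N of neurons, hardly separated the genotypes. Its null arrays read 5.85, 5.99, 6.10, 5.94 and 5.90, its heterozygous arrays 6.55, 5.91, 5.89, 5.91 and 5.86, and its wild-type arrays 5.76, 5.98, 5.97, 5.94 and 5.94. All arrays but heterozygous array 1 fell between 5.76 and 6.10. Heterozygous minus wild type was 0.11 with that array and -0.0255 without it (adjusted p = 0.994 and 0.999). Null minus wild type was 0.04 (95% interval -0.19 to 0.26, adjusted p = 0.867).

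Epb41l3, protein 4.1B, showed the same array at the top. Its null arrays read 6.67, 6.82, 6.76, 6.84 and 6.61, its heterozygous arrays 7.13, 6.71, 6.69, 6.92 and 6.78, and its wild-type arrays 6.82, 6.91, 6.80, 6.80 and 6.79. The genotypes overlapped, and null array 5 was lowest. Null minus wild type was -0.08 (95% interval -0.25 to 0.08, adjusted p = 0.544), and heterozygous minus wild type was 0.02 with heterozygous array 1 and -0.049 without it. In that array the 10 neuron markers deviated from their own means by 1.08 on average, and in the other 14 arrays by -0.54 to 0.31. Oligodendrocyte markers (7 measured, 6 above the filter) deviated there by 0.94 and elsewhere by -0.58 to 0.52. The part of neural RNA in these levels was not tested.

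Of the tropomodulins, Tmod2 had the widest range of any member over the 15 arrays, 0.99. It encodes the form best known from neurons. The null arrays read 6.65, 6.03, 6.30, 6.03 and 6.09, the heterozygous arrays 6.51, 6.03, 5.66, 6.03 and 5.82, and the wild-type arrays 5.78, 5.70, 5.89, 6.03 and 6.03. No null array was below the highest wild-type value of 6.03, which 2 null arrays shared. The means were 6.22 ± 0.265 in null, 6.01 ± 0.320 in heterozygous and 5.89 ± 0.148 in wild-type mice (SD, n = 5 each).

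Null minus wild type was 0.33 for Tmod2 (95% interval 0.04 to 0.63, exact permutation p = 0.0476), which did not pass after adjustment (limma adjusted p = 0.152). With Mpp1 it made 2 of 9 members with an unadjusted p under 0.05 in this comparison, as had 24.0% of all tested genes. The difference was 0.23 without null array 1 (adjusted p = 0.368). Heterozygous minus wild type was 0.12, and -0.001 without heterozygous array 1. Null array 1, the highest for Tmod2, had neuron markers 0.20 below their means, and heterozygous array 1, the second highest, had them 1.08 above. The part of neural RNA in the Tmod2 levels was not tested.

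The genes most like Tmod2 over the 15 arrays were Slc25a27, a mitochondrial carrier (r = 0.916), Asph, an aspartate hydroxylase of the endoplasmic reticulum (r = 0.903), and Tlcd4 (r = 0.896). Without null array 1 and heterozygous array 1, which lay farthest from the median of Tmod2, the values were 0.943, 0.741 and 0.745. As above, these are the highest of the named genes among 10108 candidates and no p is given.

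Tmod3, the widely expressed tropomodulin, is the direct neighbour of Tmod2 on the chromosome, with 0 protein-coding genes between them in the reference table. Its null arrays read 7.63, 7.40, 7.53, 7.82 and 7.50, its heterozygous arrays 7.36, 7.44, 7.28, 7.50 and 7.44, and its wild-type arrays 7.48, 7.40, 7.43, 7.38 and 7.78. Null array 4 and wild-type array 5 were the highest, so the genotypes overlapped. Null minus heterozygous was 0.17 (95% interval -0.01 to 0.35, adjusted p = 0.211), and null minus wild type was 0.08 (95% interval -0.10 to 0.26, adjusted p = 0.600). The null minus wild type value of Tmod3 was 0.021 without null array 4 and 0.15 without wild-type array 5.

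Tmod1 is the tropomodulin of red cells, heart and lens. Its null arrays read 5.42, 5.57, 5.19, 5.27 and 5.69, its heterozygous arrays 6.04, 5.66, 5.65, 5.33 and 5.50, and its wild-type arrays 5.71, 5.89, 5.52, 5.38 and 5.66. The genotypes overlapped, and 13 of the 15 arrays exceeded the filter value of 5.31. The difference of null from wild type was -0.20 (95% interval -0.47 to 0.06, adjusted p = 0.334). Tmod1 was the 1 member with a second probe set, which gave 0.03 for the same difference (adjusted p = 0.925 over 11120 probe sets). The 2 probe sets correlated weakly over the 15 arrays (Pearson r = 0.304), so the sign of the Tmod1 difference rests on the choice between them.

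Dmtn, which encodes dematin, had nearly equal means in the 3 genotypes. The null arrays read 6.78, 7.12, 6.88, 6.66 and 6.46, the heterozygous arrays 6.95, 6.71, 6.78, 6.48 and 6.80, and the wild-type arrays 7.05, 6.80, 6.78, 6.50 and 6.78. Each genotype held high and low arrays. Null and wild type differed by -0.002, with a 95% interval of -0.25 to 0.24 (adjusted p = 0.992).

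Stom had null arrays at 5.44, 5.48, 5.42, 5.80 and 5.48, heterozygous arrays at 5.45, 5.40, 5.53, 5.69 and 5.53, and wild-type arrays at 5.19, 5.43, 5.32, 5.16 and 5.80. Wild-type arrays 1, 3 and 4 were the lowest of all 15, but wild-type array 5 tied with null array 4 for the highest. Null minus wild type was 0.14 (95% interval -0.08 to 0.37, adjusted p = 0.435) and heterozygous minus wild type 0.14 (95% interval -0.08 to 0.36, adjusted p = 0.994). Single arrays moved these values: null minus wild type was 0.25 without wild-type array 5 (adjusted p = 0.0874), 0.10 without wild-type array 1 and 0.075 without null array 4. With 1 array left out, heterozygous minus wild type ran from 0.085 to 0.245, the highest without wild-type array 5. Levels of Stom were close to the filter value, where differences on arrays are compressed.

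**Figure D3:**
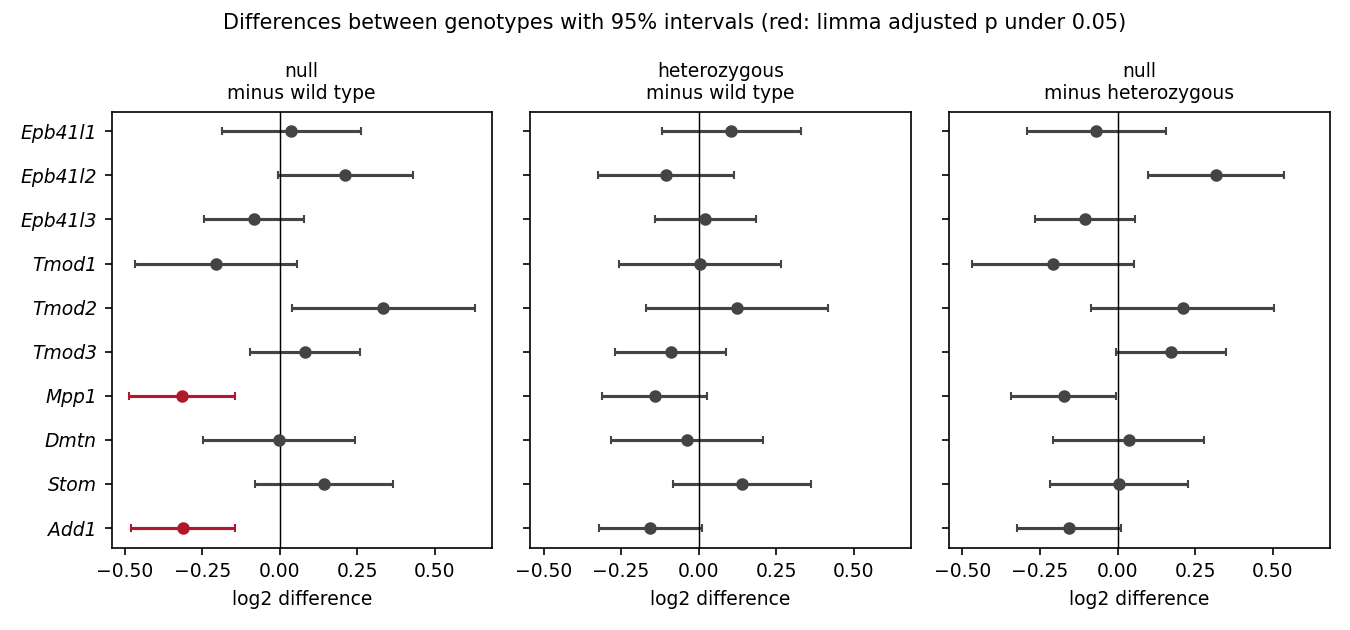
Log2 differences between genotypes for the 9 genes and for Add1, with 95% intervals from limma; the panels show null minus wild type, heterozygous minus wild type and null minus heterozygous, and red marks an adjusted p under 0.05. Mpp1 (-0.32) and Add1 (-0.31) pass in null minus wild type, and none passes in the other panels.

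Between heterozygous and wild-type mice limma called 0% of all tested genes and 0 of the 9 members. At an unadjusted p under 0.05 there were 381 genes, or 3.77%, and 0 members. The largest absolute member difference was the -0.14 of Mpp1, and the median over the members was 0.004, beside 0.002 over all tested genes. Null mice are set against both other genotypes with the same null arrays, so the values of those comparisons are not independent.

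All 9 members had a residual SD within genotypes above the median of tested genes, which was 0.122. The spread ran from 0.123 for Epb41l3 to 0.254 for Tmod2. Array by array, Epb41l2 and Tmod3 deviated from their genotype means together (Pearson r = 0.844, permutation p = 0.00201; Spearman rho = 0.799, permutation p = 0.00360; 15 arrays). Mpp1 ran against Tmod2 (r = -0.726, p = 0.00461; rho = -0.794, p = 0.00147; both permutation p, 15 arrays). Without the 2 arrays farthest from the median of the first gene the values of r were 0.770 for Epb41l2 with Tmod3 and -0.771 for Tmod2 with Mpp1. Of the 36 pairs of members, 0 passed after Benjamini-Hochberg adjustment, and these 2 had the lowest adjusted permutation p (0.0724 and 0.0830).

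**Figure D4:**
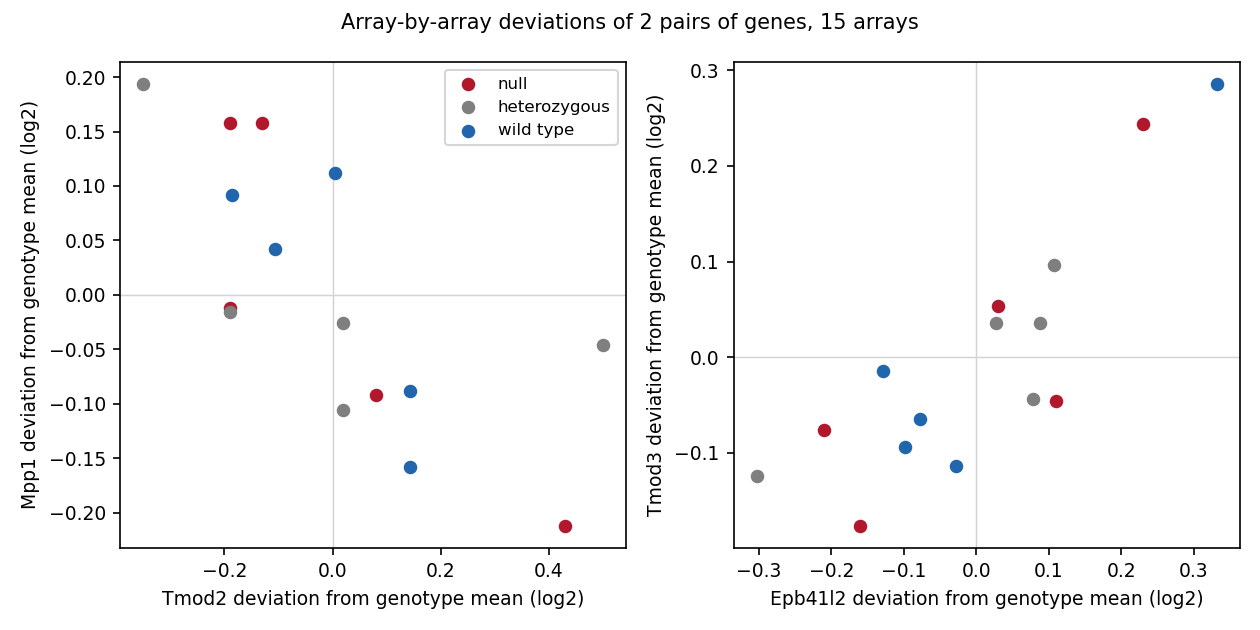
Deviation of each array from its genotype mean (log2) for Tmod2 (horizontal) against Mpp1 (vertical), left, and for Epb41l2 against Tmod3, right; each point is 1 of 15 arrays, coloured by genotype. Mpp1 falls as Tmod2 rises (r = -0.726), and Epb41l2 and Tmod3 rise together (r = 0.844).

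Null array 4 and wild-type array 5 were the 2 highest arrays for Epb41l2, Tmod3 and Stom alike. The same arrays had the highest summed signal of the 7 macrophage markers, 8.50 and 8.34, against 7.75 to 8.29 in the other 13. By group that sum ran from 7.89 to 8.50 in null, 7.75 to 8.08 in heterozygous and 7.94 to 8.34 in wild-type mice, and 3 of the 7 markers were above the filter. Summed stromal signal was 11.10 to 11.43 in null, 10.71 to 11.09 in heterozygous and 10.66 to 11.08 in wild-type mice. Of the 7 stromal markers, 2 were called higher and 1 lower in null against wild type, where 7.72% of all tested genes were called. Their average deviation from their own means overlapped, at -0.12 to 0.42 in null and -0.27 to 0.10 in wild-type mice. The part of these cell types in the member levels was not tested.

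Several members are red cell proteins, so blood in the tissue was looked at. Of 13 erythroid markers 5 were measured here under a single symbol, and Alas2, the heme synthesis enzyme of red cell precursors, was the 1 above the filter. Their summed log2 signal was 6.70 to 7.62 in null, 6.84 to 7.34 in heterozygous and 6.85 to 7.33 in wild-type mice. The groups overlapped, with the highest sum in null array 1, the array lowest in Mpp1.

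The wider families of the members were read from a list of 32 relatives: other FERM-domain, tropomodulin and leiomodin, palmitoylated membrane protein, stomatin and villin headpiece genes. Of the 32, 18 were tested, and no tropomodulin or leiomodin gene was among those 18. Null against wild type called 0 of the 18, where 7.72% of all tested genes were called. Of the 18, 15 differed upward, as did 53.8% of all tested genes, and the median was 0.06, beside 0.01 over all. The smallest p-values belonged to Frmd4b, a FERM-domain scaffold (0.25, adjusted p = 0.0522), and Svil, the membrane-linked actin binder supervillin (0.24, adjusted p = 0.0554). Null against heterozygous, with 7.82% of all tested genes called, called 1 of the 18, Frmd4b, which rose by 0.29 (SE 0.0759, adjusted p = 0.0296). Its null arrays read 7.23, 7.07, 7.19, 7.17 and 7.40, all above its heterozygous arrays at 6.66, 6.96, 6.91, 7.05 and 7.04. In that comparison 582 of all 10109 tested genes had arrays that did not overlap.

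Among 28 partners in the membrane skeleton, 16 were tested. Null against wild type called 1 higher, Slc2a1, and 1 lower, Add1 itself, of the 16, where 7.72% of all tested genes were called. The median was 0.02, beside 0.01 over all. Slc2a1 encodes the glucose transporter to which stomatin, dematin and adducin bind in human red cells. It rose by 0.58 (SE 0.0850, adjusted p = 9.42e-04), with null arrays at 10.05 to 10.60 and wild-type arrays at 9.59 to 9.83. Summed endothelial signal (8 markers measured, 5 above the filter) was 9.02 to 9.44 in null and 8.74 to 9.20 in wild-type mice. Of these 5 markers, 2 were called higher and 0 lower in null against wild type, where 7.72% of all tested genes were called. The part of endothelial RNA in the Slc2a1 difference was not tested. Null against heterozygous, with 7.82% of all tested genes called, also called 1 higher, Slc2a1 (0.42, adjusted p = 0.00844), and 1 lower, the erythroid beta-spectrin gene Sptb (-0.21, SE 0.0545, adjusted p = 0.0259). Sptb read 6.87, 6.87, 6.95, 6.76 and 6.82 in null mice and 7.17, 6.95, 7.06, 7.15 and 7.01 in heterozygotes, the groups meeting at 6.95. Its wild-type arrays lay between, at 6.94 to 6.98. Against wild type the Sptb difference was -0.10 for null (limma adjusted p = 0.258) and 0.11 for heterozygous mice (adjusted p = 0.994). Heterozygous against wild type called 0 of the relatives and 0 of the partners, each with 0 at an unadjusted p under 0.05.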

How the data were processed

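Arrays were grouped by the genotype in the sample titles, 5 per genotype. The deposited log2 values came from Affymetrix Expression Console 1.1 and RMA, per the submitters' processing notes; RMA corrects background, normalizes quantiles between arrays and summarises each probe set. The log base was read from the values (1.57 to 13.89). No build for the probes is named in the sources used, and the labels do not say whether animals shared a litter, so p-values measure the spread between these arrays.

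The platform annotation, which can be old, gave 21789 of 35556 probe sets 1 symbol, 1621 several and 12146 none; 21698 of the first matched the reference gene table of GRCm38.p6, used for names. For each of 19938 genes the highest-mean probe set was kept. Genes above 5.31, the median of these values, in at least 5 arrays were tested. One limma 3.58.1 fit (R 4.3.3, lmFit and eBayes) over 15 arrays gave differences, 95% intervals and Benjamini-Hochberg p-values over all 10109 tested genes, called under 0.05; the slope came from a fit on allele number. Single differences also had an exact two-sided permutation test over all regroupings of 5 against 5 (smallest p 0.00794). Pairs of members were tested with 100000 permutations within genotypes.

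Named were all members, Add1 and called genes of the lists of relatives and partners (or the 2 smallest p). The 3 genes with an approved name most like a called or the widest-ranging member were named too. Members and lists were chosen with earlier results of these data known. Alternatives covered the filter, probe sets, scaling, variance model, arrays left out, replicate numbers and the numbers in the sample descriptions.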

Additional observations from a re-analysis of the deposited data

Results flagged for a closer look

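Of 27 groups of 5 arrays (9 genes in 3 genotypes), 7 held an array far from the others. Its gap to the nearest neighbour was above 0.71 of the group's range. Independent groups of normal values would give about 1 in 20, but these groups reuse the same 15 arrays. The share over all tested genes was not computed, so the count is not read as a trait of these genes. Heterozygous array 1 stood high for Epb41l1 (6.55, next 5.91, gap 0.928 of the range), and it is the array with neural transcripts. Wild-type array 1 stood low for Epb41l1 (5.76, next 5.94, 0.818). Heterozygous array 3 stood low for Epb41l2 (5.55, next 5.88, 0.805).

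Wild-type array 5 stood high for Epb41l2 (6.29, next 5.93, 0.783) and for Tmod3 (7.78, next 7.48, 0.750). Null array 4 stood high for Stom (5.80, next 5.48, 0.842). Wild-type array 2 stood high for Epb41l3 (6.91, next 6.82, 0.750), in a group whose whole range was narrow.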

How the results depend on the processing

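Null against wild type called 780 tested genes and 1 member. The counts were 458 and 0 with only the 2 genotypes fitted, 401 and 0 without the arrays with Xist signal, 259 and 0 with the number in the sample description as covariate, and 1315 genes with array weights; leaving out 1 array gave 392 (without wild-type array 1) to 1420 genes (without null array 2) and 0 to 1 members. Leaving out heterozygous array 1 together with the Xist arrays, a choice made after seeing the data, gave 0 members. Heterozygous against wild type gave 1 gene with array weights, 1 without the Xist arrays and 0 to 1 with 1 array left out. Null against heterozygous, 791 genes and 0 members, gave 500 genes with no filter, 342 with only the 2 genotypes, 332 without the Xist arrays, 199 with the covariate, 297 without the 3 arrays, and 1296 genes and 1 member, Epb41l2, with array weights; leaving out 1 array gave 356 to 1812 genes and 0 to 1 members. The Mpp1 difference held its call in 19 of 28 alternative fits, within -0.38 to -0.26; beside the arrays named above it lost it with only the 2 genotypes (adjusted p = 0.0509), with the covariate (0.106) and without the 3 arrays (0.0581). In the same 3 fits the adjusted p of Add1 was 0.0535, 0.250 and 0.0912. The Mpp1 slope also lost its call with no filter (0.0503), with the number as a random block (0.0502), with the covariate (0.208) and without the 3 arrays (0.0729).

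Signs turned in 17 of 36 member results, and the 50 values with a turned sign had adjusted p of 0.369 or more. In null minus wild type, Dmtn became 0.105 without the Xist arrays and without the 3 arrays, and with the covariate Dmtn became 0.12, Tmod3 -0.011 and Stom -0.0326; with 1 array left out Dmtn ran from -0.087 to 0.078 and Epb41l1 from -0.0015 to 0.0645. In heterozygous minus wild type, Tmod1 became -0.00987 with quantile normalization and -0.0744 with array weights, Epb41l3 -0.0452 with array weights, and without the 3 arrays Epb41l1 became -0.0255, Epb41l3 -0.049, Tmod1 -0.097 and Tmod2 -0.001. With 1 array left out Dmtn ran from -0.11 to 0.029, Epb41l1 from -0.0255 to 0.147, Epb41l3 from -0.049 to 0.061, Tmod1 from -0.097 to 0.0805 and Tmod2 from -0.001 to 0.21. In null minus heterozygous, Stom became -0.014 with median centring, -0.000925 with the label number as a random block and -0.16 with the covariate, Epb41l1 0.0363 with array weights, and without the 3 arrays Epb41l1 became 0.12 and Epb41l3 0.0317; with 1 array left out Dmtn ran from -0.049 to 0.12, Epb41l1 from -0.11 to 0.0635 and Stom from -0.065 to 0.0465. The slope of Dmtn became -0.0433 without the Xist arrays and -0.040 without the 3 arrays, and with the covariate the slopes were -0.0349 for Dmtn, -0.0019 for Epb41l3 and 0.0297 for Tmod3; with 1 array left out Dmtn ran from -0.0359 to 0.0433 and Epb41l1 from -0.0352 to 0.00344. The cause was not tested.

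Same-numbered arrays correlated between -0.254 and 0.238 in their deviations, and in no comparison were all 5 pairs positive, so the numbers were not taken as pairs. In heterozygous against wild type the 5 values ran from -0.0562 to 0.15 and 4 of 5 arrays correlated best with their own number, a hint from the data and not from the design; this held for 0 of 5 in null against wild type and 1 of 5 in null against heterozygous. A replicate block gave 520 genes and 1 member for null against wild type, 546 genes and 0 members for null against heterozygous, and 0 of either for the remaining comparison; Mpp1 kept its call (adjusted p = 0.0461), while its slope (0.0535) and Add1 (0.0575) did not. The stricter filter left Tmod1 and Stom without a value. Members close to the filter value, Stom and Tmod1 among them, have the least signal over background.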

Other observations

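Each sample description carries a number whose meaning is not given, and some genotypes share one. Under number 432, with 2 heterozygous and 2 wild-type arrays, heterozygous minus wild type was -0.04 for Mpp1, -0.12 for Tmod2, -0.15 for Epb41l2 and 0.37 for Stom. Under number 429, with 1 heterozygous and 2 wild-type arrays, it was -0.32 for Mpp1, 0.29 for Tmod2, 0.10 for Epb41l2 and 0.09 for Stom. Under number 460, with 1 null and 1 heterozygous array, null minus heterozygous was 0 for Mpp1, 0.21 for Tmod2, 0.13 for Epb41l2 and -0.05 for Stom. Null and wild-type arrays share no number, so there is no value within a number for that comparison. The null arrays carried 444, 460, 468, 468 and 483, and the wild-type arrays 429, 429, 432, 432 and 451. Genotype and number were thus largely tied, and their parts in null minus wild type cannot be fully told apart.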
